A study of Arabidopsis thaliana with 9 samples.

Results

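The endodermis is the innermost cortical layer of the root, and it controls what passes between the soil and the vascular tissue. Its cells are sealed to each other by the Casparian strip, a lignin band in the wall that is positioned by the CASP membrane proteins. In Arabidopsis the transcription factor SHR is made in the central vascular tissue and moves into the next cell layer, where it acts with SCR to set endodermal identity. The factor MYB36 then switches on the genes that build the strip, among them the CASP genes, ESB1 and the peroxidase gene PER64.

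Of 10 such genes chosen by locus identifier, 9 are described here from a deposited RNA-seq table of 33278 loci: CASP1, CASP2, CASP4, CASP5, MYB36, ESB1, PER64, SHR and SCR. They were chosen for their known place in the endodermis and not by their values, though earlier results of these data were known. The table holds 4 libraries from whole seedlings of 6 days, 2 from plants labelled as hd2b hd2c double mutants and 2 from wild-type Columbia-0 (Col). HD2B and HD2C encode plant-specific histone deacetylases, and the comparison asks which transcripts differ when both genes are mutated. Plants of both genotypes grew on soil under continuous light, the labels give no insertion site or allele for either mutation, and they do not say how many seedlings were pooled in a library. The other 5 samples of the series come from leaves, carry chromatin or RNA immunoprecipitation, and are not analysed here.

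Of the 2 mutated genes, HD2B was lower and HD2C was not. HD2B (AT5G22650) stood at 24.2 and 24.3 FPKM (fragments mapped to a locus, scaled for its length and for library size) in labelled mutant libraries, against 138 and 191 FPKM in Col, a log2 change of −2.69 (SE 0.17, limma adjusted p = 3.62e-04). The level of HD2C (AT5G03740) was 74.7 and 55.8 FPKM in labelled mutant libraries, against 56.1 and 63.9 FPKM in Col, and a value for the whole locus cannot tell a complete from a truncated transcript. The libraries are therefore called labelled mutants, and all directions given here depend on that label and on the fall of HD2B. Across the table, 19917 loci had at least 1 FPKM in at least 2 libraries and were tested, and all 9 described genes were among them. The FPKM totals were 956002 and 1105981 for labelled mutants and 988524 and 992451 for Col, and 19537 to 19767 loci reached 1 FPKM in each library. The table holds no fragment counts, so the depth behind each value is unknown.

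All 9 genes were detected in every library, from 0.995 FPKM for CASP5 to 31.5 FPKM for CASP1, and none passed the test between genotypes. Log2 changes are labelled mutant minus Col in log2(FPKM + 1), and the added 1 shrinks the change of genes with low FPKM. Of the 9 genes, 8 had a change above 0, where 50.7% of tested loci did, and the median was 0.20 beside 0.0041 over all tested loci. With limma 0 of the 9 were called higher and 0 lower at an adjusted p under 0.05, where 0.608% of tested loci were called higher and 0.552% lower. At an unadjusted p under 0.05 there was 1 of the 9, CASP4, where 17.2% of tested loci passed. Both labelled mutant libraries lay above both Col libraries for CASP4, MYB36 and SCR, 3 of the 9, where 24.2% of tested loci did so. In whole seedlings a difference in the number of endodermal cells and a difference in RNA per cell cannot be told apart.

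**Figure D1:**
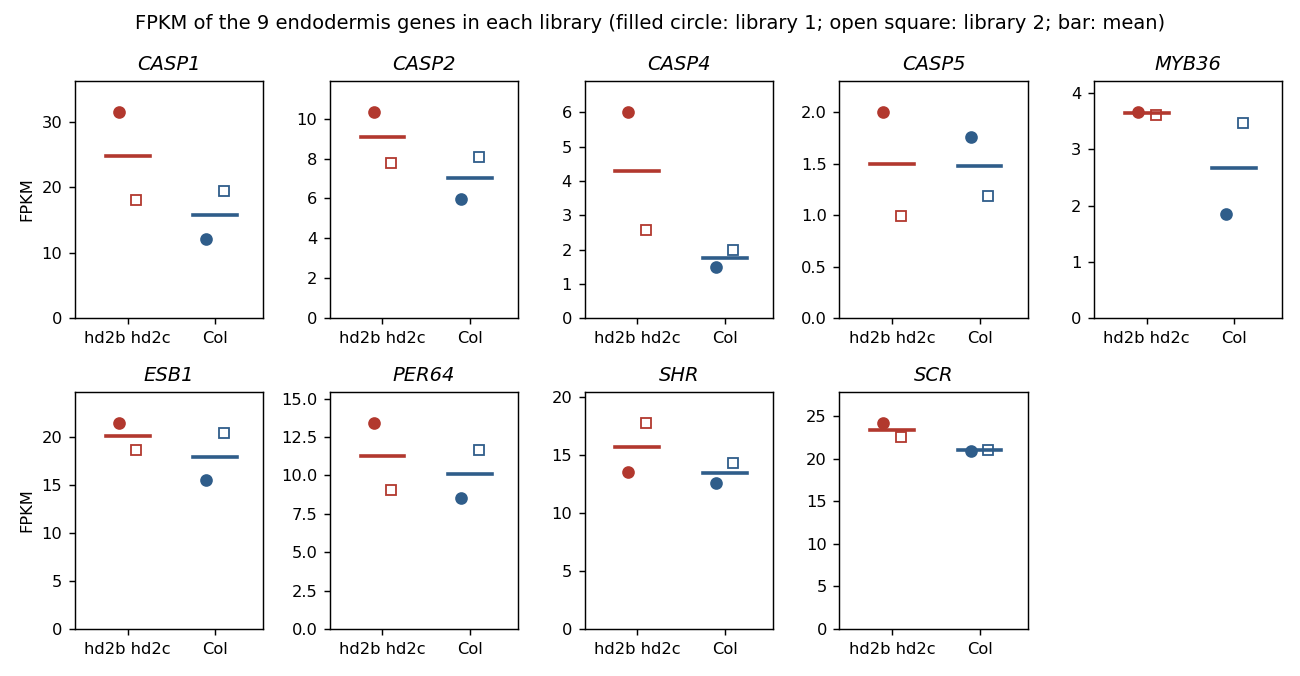
FPKM of each gene (vertical axis, from 0, with its own scale in each panel) in the labelled mutant and Col libraries; filled circles are libraries numbered 1, open squares libraries numbered 2, and bars the mean of 2 libraries. CASP4 stood at 6.01 and 2.58 FPKM in labelled mutants, above 1.4996 and 1.99 FPKM in Col, while the libraries of the 2 groups overlapped for CASP1, CASP2, CASP5, ESB1, PER64 and SHR.

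SHR and SCR act first in the pathway. SCR had the narrowest interval of the 9 genes, followed by SHR and, almost as narrow, ESB1 (SE 0.152 and 0.153). SCR (AT3G54220), a GRAS transcription factor, stood at 24.2 and 22.6 FPKM in labelled mutants, against 20.9 and 21.0 FPKM in Col. Both labelled mutant libraries were higher, and the log2 change of 0.15 (SE 0.11, limma adjusted p = 0.543) had a 95% interval of −0.11 to 0.41. SHR (AT4G37650), the mobile GRAS factor that enters the endodermis, stood at 13.6 and 17.8 FPKM in labelled mutants, against 12.6 and 14.3 FPKM in Col. The groups overlapped, with a log2 change of 0.20 (SE 0.15, limma adjusted p = 0.560) and an interval of −0.15 to 0.55. For SHR labelled mutant library 2 was the highest of the 4, and for the other 8 genes labelled mutant library 1 was. The ratio of SHR to SCR FPKM was 0.561 and 0.790 in the labelled mutants and 0.603 and 0.683 in Col.

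MYB36 (AT5G57620), the R2R3 MYB factor that activates the strip genes, was weakly expressed. It stood at 3.66 and 3.61 FPKM in labelled mutants, against 1.86 and 3.47 FPKM in Col. The 2 labelled mutant libraries were nearly equal and lay just above Col library 2, whereas Col library 1 stood apart at a lower level. The log2 change was 0.38 (SE 0.22, limma adjusted p = 0.431), with a 95% interval of −0.13 to 0.89.

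The CASP genes encode membrane proteins that form the scaffold on which the Casparian strip is laid down. CASP1 (AT2G36100) stood at 31.5 and 18.01 FPKM in labelled mutants, against 12.1 and 19.5 FPKM in Col. Labelled mutant library 1 was the highest and Col library 1 the lowest, with the libraries numbered 2 between them, and the log2 change was 0.60 (SE 0.36, limma adjusted p = 0.477, interval −0.36 to 1.57). CASP2 (AT3G11550) stood at 10.3 and 7.79 FPKM in labelled mutants, against 5.96 and 8.07 FPKM in Col, and its log2 change was 0.33 (SE 0.18, limma adjusted p = 0.405). In CASP2 as in CASP1, library 1 of the labelled mutants was the highest and library 1 of Col the lowest.

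CASP4 had the largest change of the 9 genes and CASP5 the smallest. CASP4 (AT5G06200) stood at 6.01 and 2.58 FPKM in labelled mutants, against 1.4996 and 1.99 FPKM in Col, 2.46-fold higher by the group means. The labelled mutant libraries differed 2.33-fold from each other, and the lower of them was close to Col library 2. Its log2 change of 0.87 (SE 0.32, interval 0.10 to 1.65) had an unadjusted p of 0.0327 and a limma adjusted p of 0.251, and it ranked 238 of 19917 tested loci from the top. Without labelled mutant library 2 the adjusted p was 0.0216, with labelled mutant library 1 then standing alone for its group, and without labelled mutant library 1 the log2 change was 0.39. CASP5 (AT5G15290) stood at 2.00 and 0.995 FPKM in labelled mutants, against 1.76 and 1.19 FPKM in Col. Library 1 was the higher in both genotypes, and the log2 change was −0.0071 (SE 0.24, limma adjusted p = 0.992, interval −0.56 to 0.54). How fragments shared between CASP copies were assigned is not given in the sources used here, so values of single copies are uncertain.

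Among the 4 CASP genes described, CASP1 was the main transcript in every library. The 4 genes summed to 49.9 and 29.4 FPKM in labelled mutants, against 21.3 and 30.7 FPKM in Col. CASP1 made up 63.2% and 61.3% of that sum in labelled mutants, against 56.8% and 63.4% in Col. CASP4 made up 12.1% and 8.77% in labelled mutants, against 7.03% and 6.48% in Col, so its share was higher in both labelled mutant libraries. CASP2 made up 20.7% and 26.5% in labelled mutants, against 27.9% and 26.3% in Col, and the groups overlapped. With 2 libraries against 2, an exact two-sided permutation test cannot give a p below 0.333, and shares of 1 sum are not independent of each other.

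**Figure D2:**
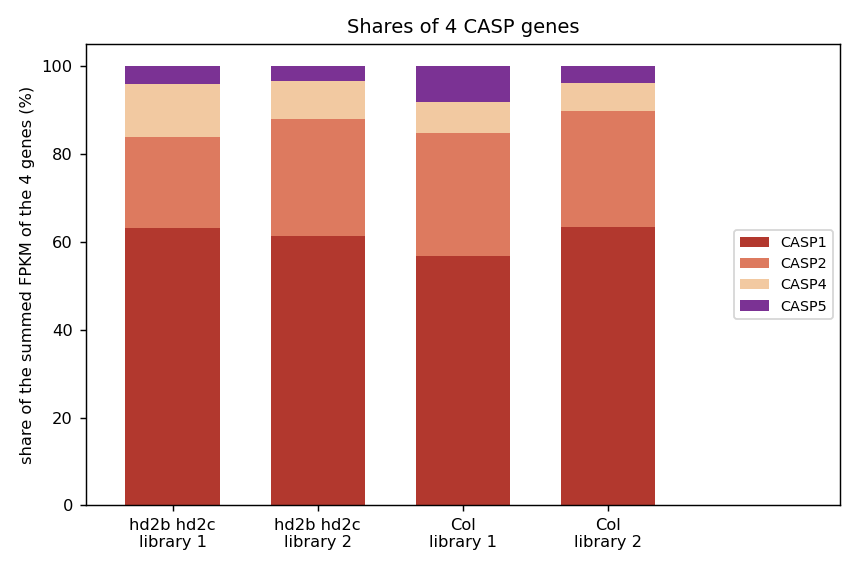
Share of the summed FPKM of CASP1, CASP2, CASP4 and CASP5 taken by each gene (vertical axis, in percent) in each of the 4 libraries. CASP1 took 56.8% to 63.4%, and the CASP4 band was wider in the labelled mutant libraries (12.1% and 8.77%) than in Col (7.03% and 6.48%).

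ESB1 and PER64 act on the lignin of the strip. ESB1 (AT2G28670), a dirigent-domain protein needed for a continuous strip, stood at 21.5 and 18.7 FPKM in labelled mutants, against 15.5 and 20.4 FPKM in Col (log2 0.16, SE 0.15, limma adjusted p = 0.641). PER64 (AT5G42180), a peroxidase localised at the strip, stood at 13.4 and 9.06 FPKM in labelled mutants, against 8.51 and 11.7 FPKM in Col (log2 0.14, SE 0.21, limma adjusted p = 0.796). Both genes had labelled mutant library 1 highest and Col library 1 lowest, as CASP1 and CASP2 did. The 95% intervals were −0.19 to 0.52 for ESB1 and −0.36 to 0.63 for PER64.

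FPKM is scaled to length, so levels may be set against each other between genes. By group mean the order in the labelled mutants was CASP1, SCR, ESB1, SHR, PER64, CASP2, CASP4, MYB36 and CASP5. In Col it was SCR, ESB1, CASP1, SHR, PER64, CASP2, MYB36, CASP4 and CASP5. Of the 8 neighbouring pairs in each order, 3 overlapped between libraries in the labelled mutants and 4 in Col. In the labelled mutants the overlapping pairs were CASP1 with SCR, PER64 with CASP2 and CASP4 with MYB36. In Col they were ESB1 with CASP1, CASP1 with SHR, MYB36 with CASP4 and CASP4 with CASP5. The 9 genes spanned mean levels from the 5.15 percentile of tested loci for CASP5 to the 66.9 percentile for SCR.

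Libraries also carry numbers, 1 and 2 in each genotype, and the difference between genotypes was not the same under both numbers. Between libraries numbered 1 all 9 genes were higher in the labelled mutant, where 49.8% of tested loci were, with a median difference of 0.60. Of the 9 genes, 4 were higher between libraries numbered 2, where 50.8% of tested loci were, with a median of −0.045. CASP1 was 2.60-fold higher between libraries numbered 1 and stood at 0.925 times Col between those numbered 2. CASP4 was 4.01-fold and 1.29-fold higher by number, and PER64 was 1.58-fold higher and then at 0.777 times Col. The 4 genes higher under both numbers were CASP4, MYB36, SHR and SCR. Without Col library 1 the log2 change was −0.025 for ESB1, −0.071 for PER64 and 0.16 for CASP5, the opposite direction to that of all 4 libraries in each. Without labelled mutant library 1 the direction also turned for PER64 (−0.13), and without labelled mutant library 2 for CASP5 (0.29). The median of the 9 genes was 0.14 without Col library 1 and 0.15 without labelled mutant library 1, and it was 0.35 without Col library 2 and 0.38 without labelled mutant library 2. Nothing in the labels says that a number marks a shared day or batch, so these are differences between single libraries.

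**Figure D3:**
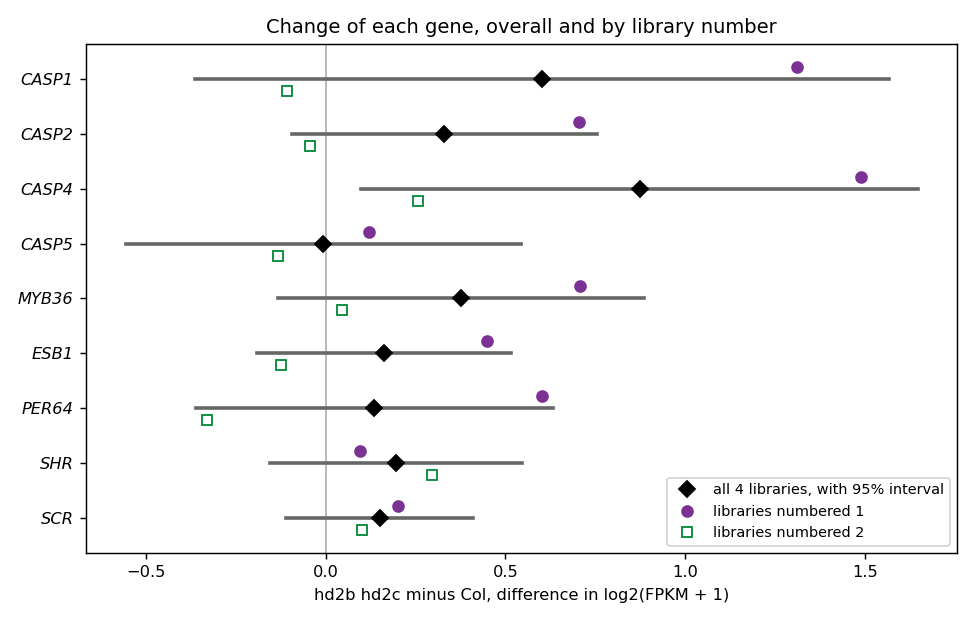
Difference in log2(FPKM + 1), labelled mutant minus Col (horizontal axis), for each gene; diamonds with lines give the 4-library estimate and its 95% interval, filled circles the difference between libraries numbered 1, and open squares that between libraries numbered 2. The circles lie right of 0 for all 9 genes, and the squares lie right of 0 for CASP4, MYB36, SHR and SCR.

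The spread within each genotype ran in opposite directions by number. Labelled mutant library 1 exceeded library 2 for 8 of the 9 genes, all but SHR, where 41.3% of tested loci did so. Col library 2 exceeded library 1 for 8 of the 9, all but CASP5, where 64.2% of tested loci did so. Labelled mutant library 1 was the highest and Col library 1 the lowest of the 4 for 7 of the 9 genes, where 9.47% of tested loci had that order. Within genotypes the largest differences were 2.33-fold between labelled mutant libraries for CASP4 and 1.87-fold between Col libraries for MYB36. For CASP1 the within-genotype differences were 1.75-fold in the labelled mutants and 1.61-fold in Col, against 1.57-fold between the genotype means.

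Marker lists of other tissues were read in the same libraries, and their part in the values above was not tested. The 10 root hair markers summed to 79.9 and 52.4 FPKM in labelled mutants, against 36.1 and 55.8 FPKM in Col, which is the same order of libraries at both ends as in the sum of the 4 CASP genes. All 10 root hair markers were higher between libraries numbered 1 and 4 were higher between those numbered 2, where 49.8% and 50.8% of tested loci were. Their medians were 0.90 and −0.13 by number (0.38 over all 4 libraries), and 0 of the 10 passed the test. Those of smallest p were XTH26, a wall-loosening enzyme gene, at 2.58 and 1.604 FPKM in labelled mutants, against 0.605 and 1.101 FPKM in Col (limma adjusted p = 0.171), PRP3, a wall protein gene, at 23.5 and 15.6 FPKM in labelled mutants, against 9.63 and 14.9 FPKM in Col (0.299), and the expansin gene EXPA18 (AT1G62980, 0.334). The 17 photosynthesis markers, which mark green tissue, summed to 59005 and 80680 FPKM in labelled mutants, against 82103 and 76893 FPKM in Col. Labelled mutant library 1 was the lowest of the 4 for all 17, where 30.7% of tested loci had that library lowest. Among them LHCB2.3, an antenna protein gene, stood at 959 and 1561 FPKM in labelled mutants, against 1893 and 1821 FPKM in Col (limma adjusted p = 0.269), and LHCB4.2 and the photosystem I gene PSAD2 (PSAD-2, AT1G03130) had adjusted p of 0.356 and 0.296.

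Most of the 12 vascular markers did not follow the CASP genes. The libraries are whole seedlings, so these values do not separate vascular tissue of the root from that of the shoot. The 12 markers summed to 330 and 338 FPKM in labelled mutants, against 337 and 360 FPKM in Col, and 3 of the 12 lay above 0 (median −0.11). Labelled mutant library 1 was highest and Col library 1 lowest for 1 of the 12, where 9.47% of tested loci had that order. It was AHP6, at 1.93 and 1.73 FPKM in labelled mutants, against 0.865 and 1.63 FPKM in Col, and was named after its values were seen. SEOR1, a structural protein of sieve elements, stood at 19.7 and 20.1 FPKM in labelled mutants, against 25.2 and 25.8 FPKM in Col (limma adjusted p = 0.186), and the cellulose synthase genes CESA7 and CESA8 of secondary walls had adjusted p of 0.329 and 0.389. Of the root cap markers 3 of 4 were tested, and BRN1, a NAC factor of cap maturation, stood at 2.98 and 2.49 FPKM in labelled mutants, against 1.603 and 2.15 FPKM in Col (limma adjusted p = 0.321). BRN2 had a limma adjusted p of 0.521 and SMB of 0.932. The 4 root cap markers summed to 7.14 and 5.81 FPKM in labelled mutants, against 4.06 and 6.35 FPKM in Col. Like the CASP sum, this was highest in labelled mutant library 1 and lowest in Col library 1. All 3 tested were higher between libraries numbered 1 and 1 was higher between those numbered 2, where 49.8% and 50.8% of tested loci were. The medians of these 3 were 0.61 and −0.037. The cortex markers were AT1G62500, at 14.4 and 14.4 FPKM in labelled mutants, against 9.41 and 11.3 FPKM in Col (limma adjusted p = 0.163), and AT1G09750, with an adjusted p of 0.921. No listed marker stood at 0 in any library.

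**Figure D4:**
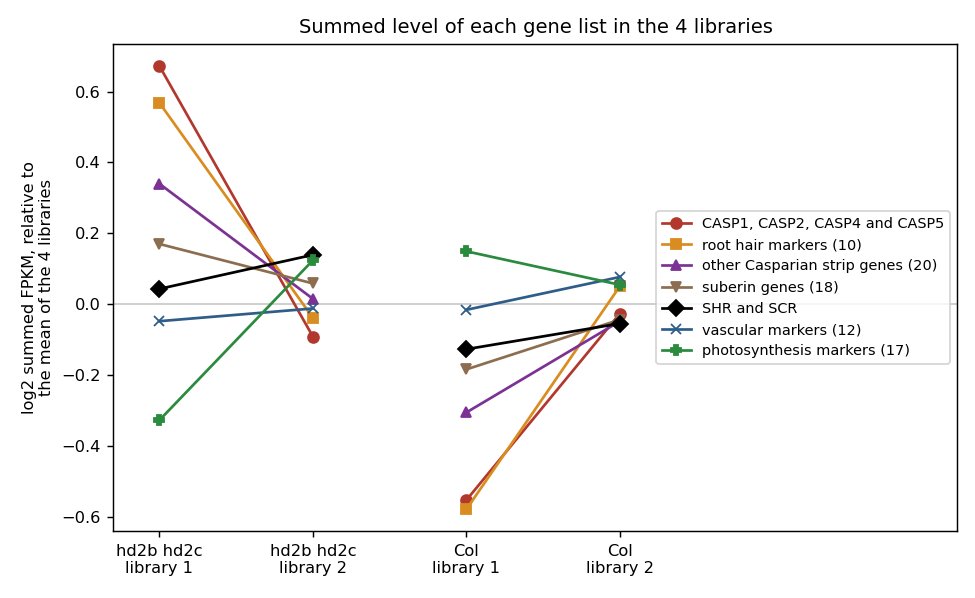
Summed FPKM of each gene list on a log2 scale, relative to the mean over the 4 libraries (vertical axis), with lines joining the 2 libraries of a genotype. The CASP and root hair sums lie highest in labelled mutant library 1 (49.9 and 79.9 FPKM) and lowest in Col library 1 (21.3 and 36.1 FPKM), and the photosynthesis sum is lowest in labelled mutant library 1 (59005 FPKM).

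Other genes of the strip were read from a fixed list of 20, of which 18 were tested. It covers the peptide and receptor signalling that surveys the barrier, the oxidases and peroxidases of lignin formation, and relatives of ESB1. Of the 18, 15 lay above 0 and 0 passed the test in either direction, with 5 at an unadjusted p under 0.05, where 17.2% of tested loci passed, and the median was 0.20 (0.39 and −0.051 by library number). UCC2, a uclacyanin gene, stood at 125 and 98.02 FPKM in labelled mutants, against 60.2 and 86.5 FPKM in Col (log2 0.61, SE 0.20, limma adjusted p = 0.200). AT4G11290 stood at 33.3 and 23.0 FPKM in labelled mutants, against 12.3 and 15.6 FPKM in Col. Both labelled mutant libraries were higher, and its log2 change of 0.95 (SE 0.19) had a limma adjusted p of 0.0801. AT1G61590 stood at 12.2 and 8.65 FPKM in labelled mutants, against 6.48 and 7.91 FPKM in Col (log2 0.47, SE 0.18, limma adjusted p = 0.248). GSO1, the receptor kinase that reads the barrier peptides, stood at 4.003 and 3.53 FPKM in labelled mutants, against 3.55 and 3.93 FPKM in Col, and was named after its values were seen.

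The network around SHR and SCR showed no common direction. Of its 10 listed genes, all tested, 5 lay above 0 and 5 below (median 0.033, by number 0.18 and 0.013), and 0 passed the test. CYCD6;1, the cyclin that SHR and SCR switch on for the division that separates cortex from endodermis, stood at 9.28 and 11.01 FPKM in labelled mutants, against 6.52 and 7.12 FPKM in Col (log2 0.51, SE 0.14, limma adjusted p = 0.142). AT3G45260 stood at 5.38 and 5.18 FPKM in labelled mutants, against 6.94 and 7.08 FPKM in Col (log2 −0.35, SE 0.13, limma adjusted p = 0.240). NUC, a zinc finger gene downstream of SHR, stood at 4.72 and 4.22 FPKM in labelled mutants, against 3.28 and 3.52 FPKM in Col (limma adjusted p = 0.328). Of the 10 genes, 4 had both labelled mutant libraries above both Col libraries and 2 had both below. Among all tested loci, 49.4% did not overlap in either direction. The 3 genes given here, named for their small p, were among those without overlap.

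Suberin, the waxy polymer that later coats endodermal cells, was followed through 18 genes, of which 14 were tested. Of these 11 lay above 0 and 0 passed the test (median 0.18, by number 0.37 and 0.056), with 3 at an unadjusted p under 0.05, where 17.2% of tested loci passed. ABCG6, an exporter of suberin precursors, stood at 5.07 and 4.54 FPKM in labelled mutants, against 2.99 and 3.08 FPKM in Col (log2 0.52, SE 0.15, limma adjusted p = 0.145). KCS2, a fatty acid elongase gene, stood at 14.7 and 11.6 FPKM in labelled mutants, against 8.42 and 10.7 FPKM in Col (limma adjusted p = 0.250). ASFT, which adds ferulate to suberin, stood at 22.9 and 19.4 FPKM in labelled mutants, against 13.0 and 18.2 FPKM in Col (limma adjusted p = 0.261). Of the 14 tested suberin genes, 8 had both labelled mutant libraries above both Col libraries, where 24.2% of tested loci did, and these 3, named for their small p, were among them. Among 4 tested of 5 relatives of MYB36, 3 lay above 0 and 0 passed the test (median 0.33, by number 0.34 and 0.23). MYB84 stood at 1.82 and 1.34 FPKM in labelled mutants, against 0.472 and 0.991 FPKM in Col (limma adjusted p = 0.232), MYB37 had an adjusted p of 0.280 and MYB68 of 0.345.

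**Figure D5:**
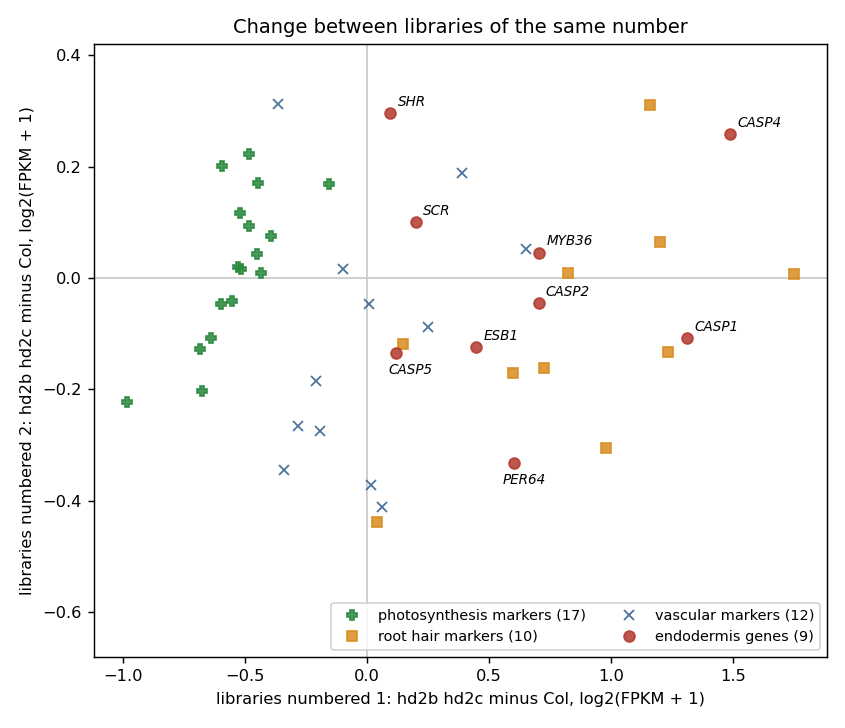
Difference in log2(FPKM + 1), labelled mutant minus Col, between libraries numbered 1 (horizontal axis) and between libraries numbered 2 (vertical axis), 1 point a gene. The 9 endodermis genes and the 10 root hair markers lie right of 0 and the 17 photosynthesis markers left of 0, while SHR, SCR, MYB36 and CASP4 lie above 0 on the vertical axis.

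The loci most like the mean of the strip genes across the 4 libraries were found from the mean centred log2 profile of 7 of them. These were CASP1, CASP2, CASP4, CASP5, MYB36, ESB1 and PER64. On this scale the profile was 0.42 and −0.069 in labelled mutants and −0.35 and −0.0063 in Col. Among 15182 other tested loci with a mean of at least 5 FPKM, the smallest root mean square distances were 0.0140 for AT5G42860, 0.0280 for IGMT1, 0.0379 for AT1G30870, 0.0412 for WRKY60 and 0.0447 for BS1 (AT1G74500). CASP2 was the closest of the 7 genes themselves at 0.0481, and 6 other loci lay within that distance. Furthest from the profile among the 7 were CASP4 at 0.312 and CASP5 at 0.301, so the mean does not describe every gene. IGMT1 stood at 9.03 and 6.39 FPKM in labelled mutants, against 4.78 and 6.4002 FPKM in Col, and had a limma adjusted p of 0.346. With 4 libraries many profiles are alike, so likeness here describes these libraries alone.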

How the data were processed

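The authors deposited FPKM for each locus and library, a unit named in the file headers. The submitters' processing notes name the build TAIR10 and list TopHat, Bowtie2 and bedtools without roles. RNA libraries came from a TruSeq kit, per the labels' protocols. How FPKM was computed, whether strand was used and how shared reads were counted is not given in the sources used here. Columns were matched to libraries by genotype abbreviation and number. The labels name no separate plants, so the p-values reflect spread between libraries that may be technical.

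Loci reaching 1 FPKM in 2 or more of 4 libraries were fitted with limma 3.58.1 (R 4.3.3) on log2(FPKM + 1), with mean-variance trend, robust moderation and genotype as the only term. P-values are two-sided and Benjamini-Hochberg adjusted over 19917 tested loci, with a threshold of 0.05. The fit was also run on simulated data whose noise was independent between loci and libraries, so they held no shifts shared by many genes. No result given here rests on that run. Folds are ratios of group mean FPKM. Symbols come from a RefSeq table of TAIR10.1, matching 32820 loci (98.6%). Of 111 listed loci, 16 lack their list name there, and those without a symbol are given by locus identifier. The genes and lists were chosen with earlier results of these data known. By the naming rule the text gives 9 of the 10 genes and in each list the genes of smallest p, up to 3. AHP6 and GSO1 were named besides. The rule also asked for all 4 HD2 genes, of which the results above give only the 2 mutated ones. Of the others, HD2D was called higher (log2 0.73, limma adjusted p = 0.0476) and HD2A was not called (log2 0.88, limma adjusted p = 0.109). Alternatives covered pseudocounts, filters, normalizations, gene span, a replicate block and each library left out. 1 chosen gene is not reported here: the fit keeps it, while counts, sums and the profile of like loci omit it. A planned search of promoters for motifs was not run.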

Additional observations from a re-analysis of the deposited data

How the results depend on the processing

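Over 14 alternatives the median of all tested loci moved between −0.046 and 0.037, and that of the 9 genes between 0.14 and 0.38. In the 10 alternatives that kept all 4 libraries no gene of the 9 changed direction or passed (90 values, lowest adjusted p 0.228). Leaving out 1 library turned 5 of 36 values. The ranges were −0.30 to 0.29 for CASP5, −0.025 to 0.35 for ESB1 and −0.13 to 0.40 for PER64. Genes of the 9 called higher numbered 0 to 1 that way, the 1 being CASP4 without labelled mutant library 2 (log2 1.36, adjusted p = 0.0216). A genotype left with 1 library is assumed to vary like the other. The direction of PER64 turned without either library numbered 1, that of ESB1 without Col library 1, and that of CASP5 without Col library 1 or labelled mutant library 2.

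Counts over all loci depended on the settings. Loci called higher and lower, 121 and 110 in the fit reported, were 332 and 284 when columns were rescaled without the 4 rRNA loci, 320 and 274 when they were rescaled to equal sums, and 19 and 20 when weakly expressed loci were kept. With the trend on gene span removed 60 were higher. Leaving out 1 library gave 146 to 390 higher and 107 to 160 lower. With the replicate block 260 were higher and 172 lower, and 0 of the 9 genes passed. The deviations of same-numbered libraries correlated at 0.17 across tested loci, with only 2 numbers, and the labels do not say that a number marks a shared origin. Sequencing depth is unknown, so the precision of the weakest genes, CASP5, CASP4 and MYB36, cannot be given from counts.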

Other observations

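The summed FPKM of CASP1, CASP2, CASP4 and CASP5 was set against the summed root hair markers after their values had been seen. The ratio was 0.624 and 0.560 in the labelled mutants and 0.592 and 0.551 in Col, while the CASP sum itself ran between 21.3 and 49.9 FPKM. For SHR and SCR summed, the same ratio was 0.473 and 0.770 in the labelled mutants and 0.931 and 0.633 in Col. CASP4 alone had ratios of 0.0753 and 0.0491 in the labelled mutants, both above 0.0416 and 0.0357 in Col. PER64 had 0.168 and 0.173 in the labelled mutants, both below 0.236 and 0.209 in Col, and ESB1 had 0.270 and 0.356 in the labelled mutants, both below 0.431 and 0.366 in Col. For the 6 other genes the groups overlapped. The sum of the 4 CASP genes with MYB36, ESB1 and PER64 had 1.11 and 1.16 in the labelled mutants, both below 1.31 and 1.19 in Col. In FPKM itself the groups overlapped for ESB1 and PER64, so the separation of their ratios depends on the divisor. The root hair sum was 79.9 and 52.4 FPKM in labelled mutants, against 36.1 and 55.8 FPKM in Col. How many of all tested loci would separate by the same ratio was not computed. These ratios are descriptions and carry no test.

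The nearest locus on each side of each of the 9 genes, and any overlapping locus, were read from the RefSeq order. AT5G06190, next to CASP4, stood at 28.1 and 29.1 FPKM in labelled mutants, against 15.7 and 14.3 FPKM in Col (log2 0.89, limma adjusted p = 0.0129). It was named after its value was seen, as the only one of these loci to pass the test. Over all tested loci 0.608% were called higher and 0.552% lower. The log2 changes of the others ran from −0.43 for AT5G57610, next to MYB36, to 0.64 for AT4G37660, next to SHR. These others include AT2G36110, AT2G28671, AT2G28680 and AT5G42170, which were too low in FPKM to be tested. PER64 overlaps AT5G42190 (ASK2), which stood at 94.8 and 91.0 FPKM in labelled mutants and 92.8 and 89.4 FPKM in Col. CASP1 overlaps AT2G36090, at 8.83 and 12.7 FPKM in labelled mutants and 7.35 and 9.94 FPKM in Col. CASP5 overlaps AT5G15300, at 0.904 and 1.65 FPKM in labelled mutants and 0.991 and 1.14 FPKM in Col. ESB1 overlaps AT2G28671, at 0.259 and 0.164 FPKM in labelled mutants and 0.219 and 0.114 FPKM in Col. The use of strand is not given, so fragments in such overlaps cannot be assigned to one gene of the pair.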
